A study of Mus musculus with 8 samples.

Results

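The 8 genes H2-K1, H2-D1, B2m, Cd74, Tap1, C4b, Serpina3n and Lcn2 take part in antigen presentation or mark reactive glia. They were taken by exact symbol from a deposited count table of 25815 genes, and all 8 were among the 16810 genes left by a filter on low counts. Total brain RNA from 8 mice, selected for poly(A) tails, was sequenced at postnatal day 50. In the 5 D50A libraries the mice carried Cstf2D50A, an alanine in place of an aspartate in the RNA recognition motif of CSTF2, a subunit of the complex that directs pre-mRNA 3' end cleavage. The 3 WT libraries came from wild-type littermates. Both groups shared the C57BL/6NCrl background, reached by 4 generations of backcrossing and then breeding inside the colony, and neither group was treated. Each library was made from part of a homogenate of the dissected brain. Sex, litter and batch are not labelled, so the labels do not tell hemizygous, heterozygous and homozygous carriers of this X-linked change apart. Sex was not read from the counts, and its balance between the groups was not examined. A missense change leaves its transcript in place, so the counts do not check the genotype labels. Libraries are numbered as deposited, and equal numbers do not mark pairs.

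Nearly all nucleated cells display peptides from their own proteins on class I molecules, each made of a heavy chain such as H2-K1 or H2-D1 and the light chain B2m. TAP1 forms part of the pump that moves these peptides into the endoplasmic reticulum, and CD74, the invariant chain, escorts class II molecules in professional antigen-presenting cells. In brain, class I genes, complement C4b, the protease inhibitor gene Serpina3n and the iron-binding lipocalin gene Lcn2 are known for rising in glia after injury, infection or interferon.

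Total counts per library ran from 13675945 to 24802272. D50A 3 stood apart: it was the shallowest library, 11.9% of its counts lay on mitochondrially encoded genes against 4.08% to 5.14% elsewhere, and its short transcripts were high and its long ones low. The labelled tissue did not match its markers in every library. The summed level of 12 cerebellar genes was 256 CPM (counts relative to the library's total) in D50A 1 and 264 to 280 CPM in WT, but 1027 to 1431 CPM in D50A 2 to 5. Gabra6, the GABA receptor subunit of cerebellar granule cells, had 0 counts in D50A 1 and 0, 6 and 2 counts in WT 1 to 3, against 1049 to 2092 counts in D50A 2 to 5. The results below are therefore also given without D50A 3, and without D50A 1 and D50A 3 together. In that last fit cerebellar markers and genotype cannot be told apart. With all 8 libraries they also largely coincide, D50A 1 being the 1 D50A library whose cerebellar sum was not above WT. In that fit 11 of the 12 cerebellar genes were higher in D50A at an unadjusted p under 0.05 (edgeR).

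The promoters of the class I chains are shown first, because those of H2-K1 and H2-D1 share a long stretch of similar letters and the levels of these genes are set side by side below. Each sequence is the 250 bases before the RefSeq start on GRCm38.p6, read 5′ to 3′ on the gene's strand. Where a gene had several listed starts, only the last listed was used. H2-K1 lies at chr17:34000334-34000583 (minus strand), H2-D1 at chr17:35262844-35263093 (plus strand) and B2m at chr2:122147437-122147686 (plus strand). The H2-D1 window falls inside the gene span given for H2-D1 below. Capitals mark matches to GGGATTCCC (the kappa B palindrome), to GAANNGAAA or GAAANNGAA (interferon-stimulated response element forms, which can overlap each other) and to TGACGC (a core of the site alpha element), all searched on both strands.
H2-K1: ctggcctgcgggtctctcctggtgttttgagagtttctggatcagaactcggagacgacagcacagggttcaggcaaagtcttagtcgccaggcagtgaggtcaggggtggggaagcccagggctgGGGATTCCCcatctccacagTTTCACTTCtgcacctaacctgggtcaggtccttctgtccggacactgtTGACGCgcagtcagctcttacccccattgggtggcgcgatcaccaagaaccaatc
H2-D1: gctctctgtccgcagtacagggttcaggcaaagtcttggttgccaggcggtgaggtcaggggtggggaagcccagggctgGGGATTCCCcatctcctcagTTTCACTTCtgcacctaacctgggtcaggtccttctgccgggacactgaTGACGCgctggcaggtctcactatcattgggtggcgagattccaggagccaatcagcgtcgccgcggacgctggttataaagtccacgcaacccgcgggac
B2m: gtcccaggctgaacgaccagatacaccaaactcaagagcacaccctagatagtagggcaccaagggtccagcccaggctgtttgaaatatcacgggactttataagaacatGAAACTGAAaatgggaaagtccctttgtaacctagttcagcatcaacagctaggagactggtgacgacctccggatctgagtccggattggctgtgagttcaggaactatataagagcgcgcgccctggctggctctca
H2-K1 and H2-D1 aligned over 192 columns, of which 89.58% were identical, and they carried the same 3 capitalised elements in the same order. B2m aligned with H2-K1 over only 39 columns, and its window held GAAANNGAA but neither the palindrome nor TGACGC.

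Of 27025 mouse promoter windows of this length, 0.285% (77) held GGGATTCCC, and 4 of those 77 were among the 32 windows of H2 genes: H2-K1, H2-D1, H2-Q6 and H2-Q7. GAANNGAAA was found in 6.46% of windows, GAAANNGAA in 7.08% and TGACGC in 5.94%. CCAAT, present in 34.1% of windows, was found in the H2-K1, H2-D1, B2m and Tap1 windows, and a STAT-type motif, TTCNNNGAA, present in 7.07%, was in none of those 4. The Serpina3n and Lcn2 windows held no match to any of the motifs searched. The Lcn2 window falls inside the gene span given for Lcn2 below, and no other start was searched. Windows were read for 6 of the 8 genes. No RefSeq entry was matched for C4b, and Cd74 was left out when the windows of the 8 were read. These matches describe letters, not sites of binding.

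None of the 8 genes passed the threshold of an adjusted p under 0.05 in the comparison of all 5 D50A with all 3 WT libraries (edgeR quasi-likelihood test), and neither did any of the 16810 genes tested (0.0% called). At an unadjusted p under 0.05, 1 of the 8, H2-D1, was higher in D50A, against 2.5% of all genes in either direction. H2-D1 and B2m lay higher in every D50A library than in every WT library, as did 3.22% of all genes, and none of the 8 lay lower in every D50A library, as did 4.24%. The median log2 fold change of the 8 was 0.28, against -0.01 over all genes tested. Without D50A 3 it was 0.13, and with the length trend removed 0.04. The p-values measure the spread between these single libraries only.

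**Figure D1:**
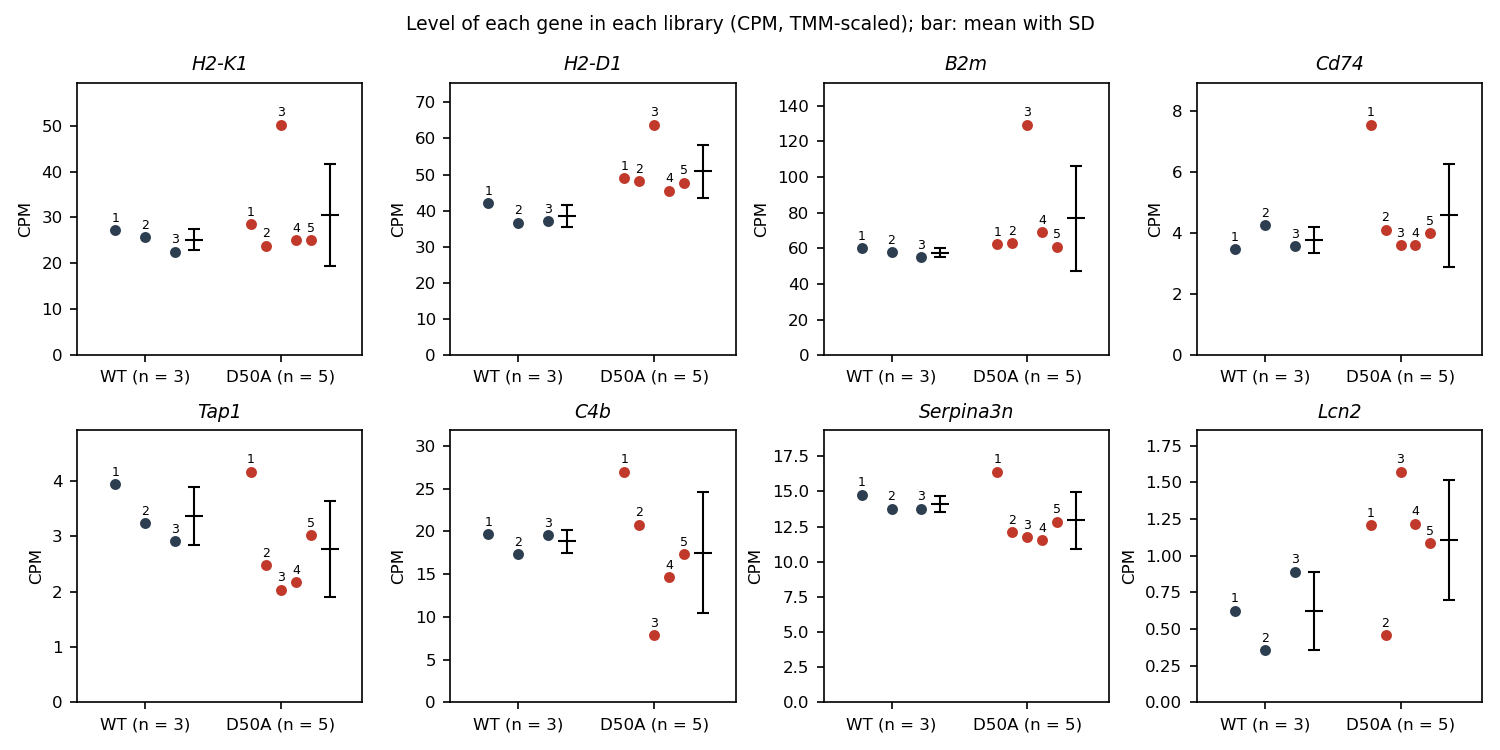
Level of each of the 8 genes in CPM (y axis, linear, from 0) in the WT (dark) and D50A (red) libraries, numbered, with the mean and SD of each group. H2-D1 and B2m have no overlap between groups, and D50A 3 holds the highest points for H2-K1, H2-D1, B2m and Lcn2 and the lowest for Tap1 and C4b.

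H2-D1 (ENSMUSG00000073411; mm10 chromosome 17, 35262730 to 35267499, plus strand, protein-coding) encodes a classical class I heavy chain. Its level was 48.9, 48.2, 63.8, 45.6 and 47.7 CPM in D50A 1 to 5 and 42.1, 36.7 and 37.1 CPM in WT 1 to 3. All 5 D50A libraries were above all 3 WT libraries, D50A 3 by the widest margin, and the other 4 stood close together. The means were 50.8 ± 7.37 CPM (SD, n = 5) and 38.6 ± 3.01 CPM (SD, n = 3). The log2 fold change was 0.40 ± 0.15 SE (edgeR, unadjusted p = 0.0315 in a fit across all genes, adjusted p = 0.837). Without D50A 1 and D50A 3 it was 0.30 ± 0.07 SE and passed the threshold (edgeR, adjusted p = 0.0116), in a fit that called 6.42% of 16591 genes.

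With all 8 libraries and quality weights, limma-voom gave H2-D1 0.29 ± 0.07 SE and an adjusted p of 0.0324, calling 3.08% of genes. The limma-voom values of the 8 lay near those without D50A 1 and D50A 3 (H2-K1 -0.02 in both, B2m 0.16 and 0.17). In edgeR with all libraries H2-K1 was 0.28 and B2m 0.42. A call in both fits, here and below, is therefore not separate support. The part of cerebellar tissue in the limma-voom calls was not tested. DESeq2, which called 0.185% of the genes it gave an adjusted p, gave H2-D1 0.41 and an adjusted p of 0.905. Over 17 alternative settings the H2-D1 log2 fold change ran from 0.29 to 0.46, the sign never changing, and its adjusted p from 0.0116 to 0.965. Cerebellar markers were above WT in D50A 2 to 5 and at the WT level in D50A 1. H2-D1 was 1.27 times the WT mean in D50A 1, which had all 8 genes above all 3 WT libraries, as it had 31.8% of all genes. The sum of the mature oligodendrocyte genes also separated the groups, narrowly, at 10440.0 to 21228 CPM for D50A (D50A 3 highest) and 9546 to 10355 CPM for WT. Of these 10 genes, 3 lay higher in every D50A library than in every WT library, as did 3.22% of all genes. The part of cerebellar tissue or of oligodendrocytes in the H2-D1 difference was not tested.

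H2-K1 (ENSMUSG00000061232; mm10 chromosome 17, 33996017 to 34000347, minus strand, protein-coding), the other classical class I heavy chain of this background, showed no such separation. Its level was 28.6, 23.8, 50.2, 25.1 and 25.0 CPM in D50A 1 to 5 and 27.2, 25.8 and 22.6 CPM in WT 1 to 3. The groups overlapped, and only D50A 3 was far above the rest. Means were 30.6 ± 11.1 CPM (SD, n = 5) and 25.2 ± 2.38 CPM (SD, n = 3), a log2 fold change of 0.28 ± 0.27 SE (edgeR, adjusted p = 0.837). D50A 2, 4 and 5 averaged 24.7 ± 0.714 CPM (SD, n = 3), so the D50A value rests on D50A 3: without that library the log2 fold change was 0.04.

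The count ratio of H2-D1 to H2-K1, which compares libraries and not the genes, was 1.71, 2.02, 1.27, 1.81 and 1.91 in D50A 1 to 5. In WT 1 to 3 it was 1.55, 1.42 and 1.64. D50A 1, 2, 4 and 5 were above all WT libraries and D50A 3 below all of them. The ratio was looked at after the values of both genes were known and was not tested. Reads can be shared between these genes and their relatives: 14.32% of 50-base windows of the H2-D1 transcript occur in another gene's transcript, most often H2-Q1 (7.4%), and 8.79% of those of H2-K1, most often H2-D1 (6.94%). At 100 bases the shares were 4.64% and 0.0%, so both genes carry some uncertainty from how reads with several matches were counted.

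B2m (ENSMUSG00000060802; mm10 chromosome 2, 122147686 to 122153083, plus strand, protein-coding), the class I light chain, was the most abundant of the 8 in reads per transcript length. Its level was 62.4, 62.9, 129.5, 69.0 and 60.9 CPM in D50A 1 to 5 and 60.1, 57.8 and 54.9 CPM in WT 1 to 3. The groups did not overlap, but D50A 5 was only just above WT 1 and D50A 3 was far above all others. Means were 76.9 ± 29.6 CPM (SD, n = 5) and 57.6 ± 2.61 CPM (SD, n = 3), a log2 fold change of 0.42 ± 0.28 SE (edgeR, adjusted p = 0.837). Without D50A 3 it was 0.16. It turned to -0.03 once the trend with transcript length was removed from each library.

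Tap1 (ENSMUSG00000037321; mm10 chromosome 17, 34187553 to 34197225, plus strand, protein-coding), the peptide pump subunit, was not higher in D50A. Its level was 4.17, 2.48, 2.04, 2.17 and 3.02 CPM in D50A 1 to 5 and 3.95, 3.24 and 2.91 CPM in WT 1 to 3. D50A 2, 3 and 4 were below all WT libraries, D50A 1 was above them and the groups overlapped. Means were 2.77 ± 0.864 CPM (SD, n = 5) and 3.37 ± 0.528 CPM (SD, n = 3), a log2 fold change of -0.27 ± 0.26 SE (edgeR, adjusted p = 0.837). Over the 17 alternatives the value ran from -0.45 to -0.14.

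Of 19 further genes of the class I pathway (peptide trimming, the loading complex, immunoproteasome subunits and non-classical heavy chains), none passed the threshold and none had an unadjusted p under 0.05 (edgeR). The log2 fold change was above 0 for 12 and below 0 for 7, with a median of 0.24, which was 0.01 without D50A 3. Psmb8, an immunoproteasome subunit, had the smallest p and averaged 2.06 ± 1.33 CPM (SD, n = 5) over the mutants, with 4.35 CPM in D50A 3, and 1.004 ± 0.394 CPM (SD, n = 3) over WT. Psmb9, another such subunit, reached 6.20 CPM in D50A 3, while the other mutants ran from 1.48 to 1.88 CPM and WT from 1.16 to 1.68 CPM. Erap1, the aminopeptidase that trims peptides in the endoplasmic reticulum, was at 8.22 to 10.1 CPM in D50A, under each WT library at 10.2 to 11.1 CPM, with a log2 fold change of -0.20 ± 0.13 SE (edgeR, adjusted p = 0.837).

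Cd74 (ENSMUSG00000024610; mm10 chromosome 18, 60803848 to 60812652, plus strand, protein-coding), the class II invariant chain, was high in 1 library. Its level was 7.55, 4.11, 3.61, 3.60 and 4.005 CPM in D50A 1 to 5 and 3.46, 4.25 and 3.56 CPM in WT 1 to 3. D50A 1, at 2.01 times the WT mean, was above all other libraries, and the remaining 4 D50A libraries lay within the WT range. Means were 4.58 ± 1.68 CPM (SD, n = 5) and 3.76 ± 0.429 CPM (SD, n = 3), a log2 fold change of 0.29 ± 0.28 SE (edgeR, adjusted p = 0.837). Without D50A 1 it was 0.05.

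The class II list, 15 of 16 genes tested, had no call and a median log2 fold change of 0.20, or 0.05 without D50A 3. H2-Aa, a class II alpha chain, had an unadjusted p of 0.0487 in the fit across all genes (edgeR, adjusted p = 0.837). Its level was 3.19, 1.83, 5.46, 1.48 and 2.13 CPM in D50A 1 to 5 and 1.68, 1.27 and 1.07 CPM in WT 1 to 3. D50A 1 and D50A 3 were highest and D50A 4 lay inside the WT range. H2-Ab1, the partner beta chain, reached 2.76 CPM in D50A 1 and 7.31 CPM in D50A 3, with 1.48 to 2.48 CPM in D50A 2, 4 and 5 and 1.32 to 2.07 CPM in WT. Cd74 was not high in D50A 3, the library where both class II chains peaked, and its count ratio to H2-Ab1 there was 0.494 against 1.65 to 3.23 elsewhere.

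Cell types known for class II were scarce. Of 7 dendritic cell genes only Flt3 and Zbtb46 passed the filter, and the other 5, among them Xcr1 and Clec9a, had at most 9 counts in any library. The 7 summed to 35.5 to 41.5 CPM in D50A 2, 4 and 5, 27.2 CPM in D50A 1 and 17.6 CPM in D50A 3, with WT at 26.1 to 29.6 CPM. Flt3 and Zbtb46 made up most of that sum. Zbtb46 is a transcription factor of dendritic cells that other cells also express. It was called higher without D50A 1 and D50A 3 (edgeR, 0.79, adjusted p = 0.000385) and in limma-voom (0.71, adjusted p = 0.014). With all libraries in edgeR it was not called (0.51, adjusted p = 0.837). Its level was 11.6 CPM in D50A 1, below WT (11.9 to 12.5 CPM), and 13.04 to 24.5 CPM in D50A 2 to 5. The cerebellar sum was also above WT in D50A 2 to 5 and not in D50A 1. The part of cerebellar tissue in the Zbtb46 calls was not tested. The 10 lymphocyte genes summed to 11.5 CPM in D50A 1, to 8.36 to 11.4 CPM in the other D50A libraries and to 9.77 to 10.8 CPM in WT, and Cd3e had at most 4 counts in any library. The 8 border macrophage genes summed to 19.2 CPM in D50A 1 and 24.2 CPM in D50A 3, with 12.2 to 14.2 CPM in D50A 2, 4 and 5 and 13.8 to 15.6 CPM in WT. The part of these cells in the Cd74 and H2-Aa values was not tested. In bulk tissue, a different number of cells of a type and a different amount of RNA per cell cannot be told apart.

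C4b (ENSMUSG00000073418; mm10 chromosome 17, 34728380 to 34743882, minus strand, protein-coding), a complement component of the classical pathway, spread widely over the D50A libraries, its highest level being 3.43 times its lowest. The lowest was D50A 3, the library with low long transcripts, and without it the highest level was 1.84 times the lowest. Its level was 26.98, 20.8, 7.86, 14.7 and 17.3 CPM in D50A 1 to 5 and 19.7, 17.3 and 19.5 CPM in WT 1 to 3. D50A 1 and D50A 2 were above all WT libraries, D50A 3, 4 and 5 below all of them, and the WT libraries stood close together. Means were 17.5 ± 7.10 CPM (SD, n = 5) and 18.8 ± 1.33 CPM (SD, n = 3), a log2 fold change of -0.10 ± 0.33 SE (edgeR, adjusted p = 0.906). The sign turned without D50A 3 (0.10) and with the length trend removed (0.05). C4b shares 35.18% of its 50-base windows and 16.5% of its 100-base windows with its neighbour C4a, so the split of reads between them is uncertain. The count ratio of C4b to C4a was 6.66 to 8.33 in D50A 1, 2, 4 and 5, 4.81 to 8.14 in WT, and 21.3 in D50A 3, where C4a had 4 counts.

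Of 18 complement genes tested besides C4b, none passed the threshold in the fit of all 8 libraries (edgeR). At an unadjusted p under 0.05, Cr1l and C2 were higher and C3ar1 lower. Cr1l, the rodent inhibitor Crry that protects cells from complement, was at 17.9, 20.99, 44.2, 20.4 and 21.3 CPM in D50A 1 to 5 and 14.7, 13.6 and 16.3 CPM in WT 1 to 3. All D50A libraries were above all WT libraries, D50A 3 by far. Its log2 fold change was 0.74 ± 0.31 SE (edgeR, adjusted p = 0.837), and it passed the threshold without D50A 1 and D50A 3 (edgeR, 0.51, adjusted p = 0.00216) and in limma-voom (0.50, adjusted p = 0.00618).

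Cd59a, which blocks the membrane attack complex and was named after its values were seen, also passed in both of those fits, at 0.42 (edgeR, adjusted p = 0.00264) and 0.41 (limma-voom, adjusted p = 0.0183). Its level was 28.2, 28.6, 140.0, 31.5 and 30.4 CPM in D50A 1 to 5 and 21.6, 23.3 and 23.3 CPM in WT 1 to 3, again with no overlap. C3ar1, the C3a receptor of microglia, was at 1.596, 1.37, 1.39, 0.901 and 0.692 CPM in D50A 1 to 5 and 1.78, 2.13 and 1.90 CPM in WT 1 to 3. It was below WT in all 5 D50A libraries and fell in both fits, at -0.95 (edgeR, adjusted p = 0.0455) and -0.98 (limma-voom, adjusted p = 0.0348). C2, a classical pathway protease, was at 0.791 to 1.43 CPM in D50A, while WT ran from 0.506 to 0.772 CPM, and it passed in neither fit (adjusted p of 0.209 in edgeR and 0.157 in limma-voom).

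Serpina3n (ENSMUSG00000021091; mm10 chromosome 12, 104406729 to 104414329, plus strand, protein-coding), a widely used marker of reactive astrocytes, was no higher in 4 of the 5 D50A libraries than in WT. Its level was 16.4, 12.1, 11.7, 11.5 and 12.9 CPM in D50A 1 to 5 and 14.8, 13.8 and 13.8 CPM in WT 1 to 3. D50A 1 was above all WT libraries and D50A 2 to 5 were below all of them. Means were 12.9 ± 1.997 CPM (SD, n = 5) and 14.1 ± 0.574 CPM (SD, n = 3), a log2 fold change of -0.12 ± 0.15 SE (edgeR, adjusted p = 0.837). Over the 17 alternatives it ran from -0.21 to -0.08. Its relatives were nearly silent: Serpina3g alone of 7 in the table passed the filter, and 6.9% of Serpina3n's 50-base windows, but 0.2% of its 100-base windows, occur in another gene's transcript.

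Lcn2 (ENSMUSG00000026822; mm10 chromosome 2, 32384633 to 32388252, minus strand, protein-coding), an acute-phase lipocalin made by reactive astrocytes and by neutrophils, was close to the limit of detection. Its reads numbered 31, 9, 17, 23 and 22 in the mutants 1 to 5, against 13, 7 and 15 in WT 1 to 3. On the CPM scale these were 1.21, 0.456, 1.57, 1.22 and 1.09 in D50A and 0.625, 0.354 and 0.891 in WT. D50A 1, 3, 4 and 5 were above all WT libraries and D50A 2 lay inside the WT range. Means were 1.11 ± 0.407 CPM (SD, n = 5) and 0.624 ± 0.268 CPM (SD, n = 3), a log2 fold change of 0.81 ± 0.43 SE (edgeR, adjusted p = 0.837). It stayed above 0 under all 17 alternatives, from 0.45 to 1.14.

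Markers of neutrophils, blood cells that carry Lcn2, put the libraries in an order similar to that of Lcn2. Ordered by Lcn2 from lowest to highest, the libraries were WT 2, D50A 2, WT 1, WT 3, D50A 5, D50A 1, D50A 4 and D50A 3. The summed level of 9 neutrophil genes in that order was 4.10, 9.43, 3.27, 28.7, 25.6, 16.5, 35.9 and 58.6 CPM. WT ran from 3.27 to 28.7 CPM and D50A from 9.43 to 58.6 CPM, so the groups overlapped. In D50A 3, highest for both, genes with transcripts up to 1000 bases had a median log2 deviation from WT of 1.93. Lcn2 (915 bases) is in that class. So are S100a8 (486 bases), S100a9 (519), Retnlg (593), Camp (758), Ly6g (941) and Elane (984) of the neutrophil list. The others of that list, Ngp (1222 bases), Ltf (2743 bases) and Mpo (2750 bases), are longer. The part of length in this likeness was not tested. S100a9, a calcium-binding protein abundant in neutrophils, had 18 to 158 counts in WT and 57 to 259 in D50A, while Ly6g and Elane, which define the cell, had at most 5 counts in any library. None of the 6 neutrophil genes tested passed the threshold (edgeR), and the part of these cells in the Lcn2 difference was not tested.

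**Figure D2:**
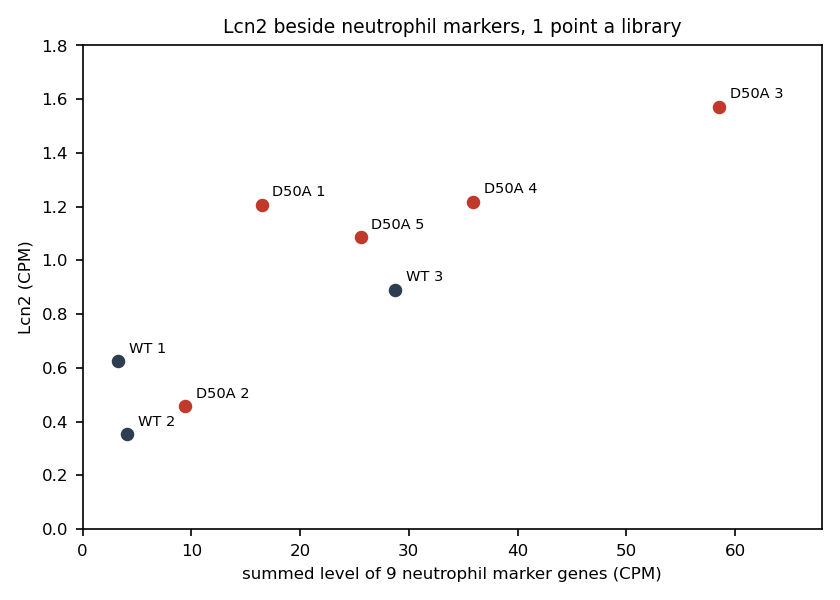
Lcn2 level (y axis, CPM) against the summed level of 9 neutrophil marker genes (x axis, CPM), 1 point a library, WT dark and D50A red. D50A 3, the library where short transcripts were high, is highest on both axes, at 1.57 and 58.6 CPM. WT 1, WT 2 and D50A 2 are lowest on both.

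Genes that change in all kinds of reactive astrocyte had 10 tested members besides those above, with a median log2 fold change of 0.15 and no call in the fit of all 8 libraries (edgeR). Vim, the intermediate filament vimentin, was at 32.2, 35.4, 48.7, 38.1 and 39.6 CPM in D50A 1 to 5 and 29.0, 24.7 and 26.1 CPM in WT 1 to 3. All D50A libraries, D50A 1 included, were above all WT libraries. Its log2 fold change was 0.54 ± 0.16 SE (edgeR, unadjusted p = 0.00982 across all genes, adjusted p = 0.837). Vim passed the threshold without D50A 1 and D50A 3 (edgeR, 0.52, adjusted p = 0.0005) and in limma-voom (0.50, adjusted p = 0.00371). Gfap, the astrocyte filament named here after its values were seen, was at 199 to 233 CPM in D50A 1, 2, 4 and 5, 574 CPM in D50A 3, with WT at 209 to 236 CPM. Steap4, a metalloreductase, was at 0.477 to 1.11 CPM in D50A, above 0.304 to 0.385 CPM in WT, from 6 to 14 counts per library.

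The lists named A1 and A2 after neuroinflammatory and ischaemic astrocytes had medians of 0.18 and 0.35 over 10 tested genes each, and 0.09 and 0.08 without D50A 3. Neither had a call or an unadjusted p under 0.05 (edgeR). B3gnt5 of the A2 list, a glycosyltransferase, was at 0.701 CPM in D50A 1, below WT (1.54 to 1.97 CPM), and at 2.89 to 7.96 CPM in D50A 2 to 5, and passed without D50A 1 and D50A 3 (edgeR, 1.10, adjusted p = 0.00677) but not in limma-voom (adjusted p = 0.14). Cerebellar genes were likewise above WT in D50A 2 to 5 and not in D50A 1, and their part was not tested. Among 13 regulators and receptors of the acute-phase response, 10 log2 fold changes were below 0, with a median of -0.24, or -0.06 without D50A 3. Cebpb, a transcription factor of that response, was at 1.76 to 2.94 CPM in D50A, under each WT library at 3.19 to 3.66 CPM, with an adjusted p of 0.837 (edgeR).

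Of 25 interferon-stimulated genes, 20 had a log2 fold change above 0 and 5 below, with a median of 0.19, or 0.08 without D50A 3. None passed the threshold in the fit of all 8 libraries, and none had an unadjusted p under 0.05 (edgeR). Ifit3, which binds foreign RNA complexes, was at 14.5 CPM in D50A 3, 5.40 to 7.07 CPM in the other D50A libraries and 5.05 to 5.92 CPM in WT. Usp18, a brake on interferon signalling, was at 1.06 to 2.13 CPM in D50A, while WT ran from 0.772 to 1.37 CPM, with overlap. Stat2, a factor of type I interferon signalling named after its values were seen, was at 33.7, 39.7, 11.4, 41.1 and 39.4 CPM in D50A 1 to 5 and 35.0, 30.5 and 29.9 CPM in WT 1 to 3. D50A 1 lay inside the WT range and D50A 3 far below it. Its log2 fold change was 0.06 with all libraries (edgeR, adjusted p = 0.951) and 0.32 in limma-voom (adjusted p = 0.0541). Stat2 was the 1 gene of these 25 called without D50A 1 and D50A 3 (edgeR, 0.35, adjusted p = 0.00832), where 6.42% of all genes were called. Cerebellar markers and genotype cannot be told apart in that fit.

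Microglial genes summed to 310 CPM in D50A 1, 263 to 292 CPM in D50A 2, 4 and 5 and 291 to 302 CPM in WT, but to 661 CPM in D50A 3. The median log2 fold change of the 12 was 0.47 with all libraries and -0.02 without D50A 3. Trem2, a lipid-sensing microglial receptor named after its values were seen, was at 13.4, 9.58, 29.5, 10.4 and 10.04 CPM in D50A 1 to 5 and 12.99, 13.3 and 13.8 CPM in WT 1 to 3. It was called lower without D50A 1 and D50A 3 (edgeR, -0.40, adjusted p = 0.0198) and in limma-voom (-0.38, adjusted p = 0.0379), the fits in which C3ar1 also fell, and its value with all libraries was 0.12 (edgeR, adjusted p = 0.904). Cx3cr1, the microglial fractalkine receptor and likewise named afterwards, was called lower in the former (edgeR, -0.21, adjusted p = 0.038) and not in limma-voom (adjusted p = 0.0654).

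The 10 astrocyte genes had a median log2 fold change of 0.07 and were not all on 1 side of 0. Slc1a2, the main glutamate transporter of astrocytes and 48.1% to 57.7% of their summed level outside D50A 3 (18.4%), was at 2433, 2314, 760.0, 2223 and 2181 CPM in D50A 1 to 5 and 2800.3, 2638 and 2758 CPM in WT 1 to 3. It was below WT in all 5 D50A libraries and was called lower without D50A 1 and D50A 3 (edgeR, -0.27, adjusted p = 0.0036) and in limma-voom (-0.28, adjusted p = 0.0318). The other 9 genes summed to 2078, 2275, 3369.5, 2401 and 2353 CPM in D50A 1 to 5 and to 2122, 2114 and 2021 CPM in WT 1 to 3, so D50A 2 to 5 were above WT and D50A 1 was inside its range. S100b, a calcium-binding protein, Aldoc, a glycolytic enzyme, and Aqp4, a water channel named after its values were seen, were called higher without D50A 1 and D50A 3, at 0.66, 0.25 and 0.24 (edgeR, adjusted p = 8.2e-05, 0.0161 and 0.0468). With all libraries no astrocyte gene was called (edgeR, adjusted p = 0.837 for these 4).

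Mature oligodendrocyte genes summed to 11120.0, 11255, 21228, 11582 and 10440.0 CPM in D50A 1 to 5 and to 9764, 10355 and 9546 CPM in WT 1 to 3, so all D50A libraries were above all WT libraries, D50A 3 by far. Of the 10 genes, 9 had a log2 fold change above 0, with a median of 0.42, or 0.14 without D50A 3. Mobp, a myelin protein, passed the threshold without D50A 1 and D50A 3 (edgeR, 0.29, adjusted p = 0.0116) and Ermn, an oligodendrocyte cytoskeletal protein, did so there (edgeR, 0.36, adjusted p = 0.00132) and in limma-voom (0.33, adjusted p = 0.0435). None passed with all libraries in edgeR. Erythroid genes summed to 2363 CPM in D50A 3, against 306 to 548 CPM in the other D50A libraries and 354 to 524 CPM in WT. Endothelial, meningeal fibroblast and choroid plexus genes summed to 252, 237 and 1169 CPM in D50A 3, against WT ranges of 272 to 310, 219 to 254 and 856 to 1058 CPM. The endothelial and meningeal sums were above WT in D50A 1 (330 and 266 CPM). Both were below WT in D50A 4 (257 and 204 CPM) and D50A 5 (257 and 191 CPM), and inside the WT range in D50A 2. Choroid plexus sums lay inside the WT range in D50A 1, 2, 4 and 5.

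Levels in D50A 3 went with transcript length over all genes, and the part of length in the value of each of the 8 was not tested. The median log2 deviation of that library from WT was 1.93 for genes with transcripts up to 1000 bases, 0.97 above that and up to 2000, 0.22 up to 3000, -0.34 up to 5000 and -1.11 over 5000. In the other D50A libraries the class medians lay between -0.11 and 0.19. B2m, with a transcript of 860 bases, deviated by 1.17 in D50A 3, H2-K1 (1619 bases) by 0.997 and C4b (5379 bases) by -1.25. Set against their length classes these were -0.76, 0.03 and -0.14. H2-D1 (2102 bases) deviated by 0.73, which was 0.51 above its class, and by 0.24 to 0.32 above its class in D50A 1, 2, 4 and 5. Cd74 (1410 bases) and Tap1 (2953 bases) stood at -1.02 and -0.90 against theirs in D50A 3, and Lcn2 (915 bases) and Serpina3n (2064 bases) at -0.66 and -0.48.

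**Figure D3:**
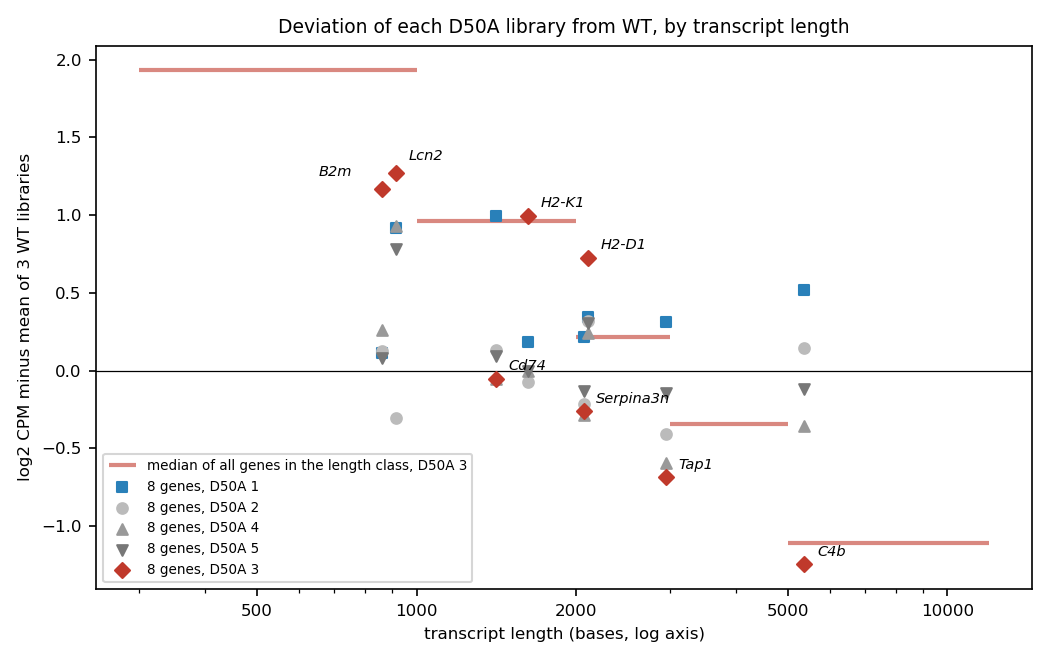
Deviation of each gene in each D50A library from the WT mean (y axis, log2 CPM) against transcript length (x axis, bases, log scale), with bars for the median of all genes of a length class in D50A 3. The D50A 3 points (red) run from 1.27 for Lcn2 to -1.25 for C4b, and H2-D1 stands above its class bar in that library.

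Setting the estimates of 5 fits side by side, H2-D1 was the 1 gene of the 8 whose value stayed more than 1 SE above 0 with nearly the same size throughout. H2-K1, B2m and C4b each changed sign in at least 1 fit, Tap1 and Serpina3n were below 0 in all 5, and Cd74 and Lcn2 were above 0 in all 5 with wide errors.

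**Figure D4:**
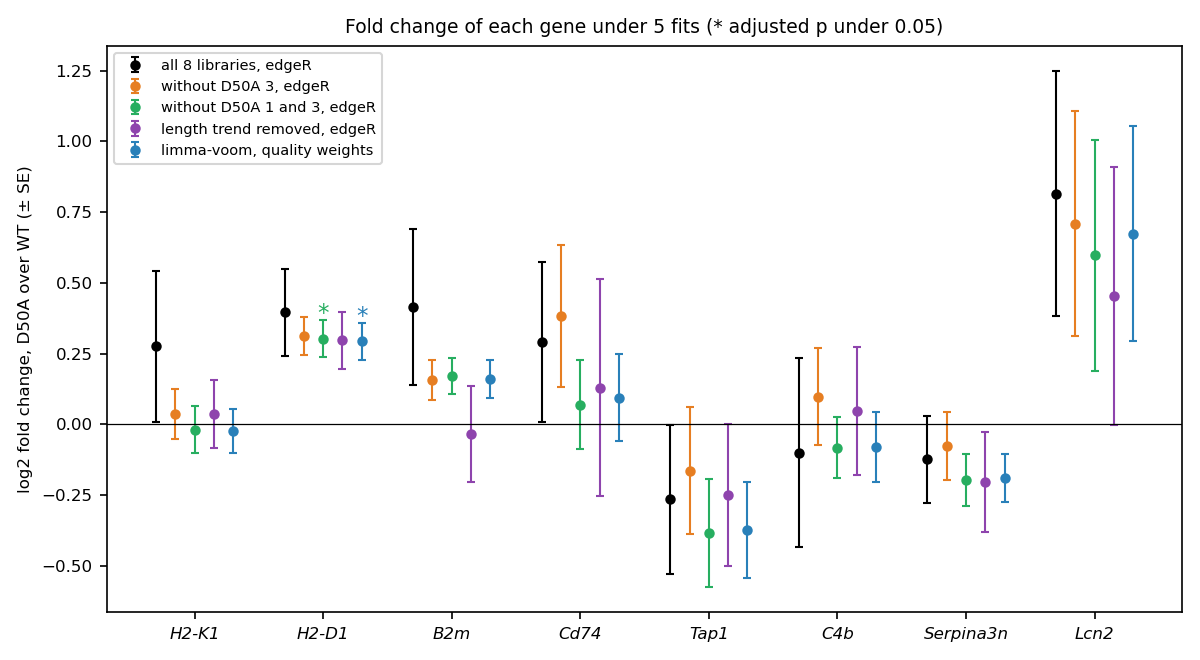
log2 fold change of D50A over WT (y axis, with SE bars) for the 8 genes (x axis) under 5 fits, with an asterisk where the adjusted p was under 0.05. H2-D1 lies between 0.29 and 0.40 in all 5 and carries the 2 asterisks.

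On the scale of CPM per kilobase of transcript, the order of mean levels in WT was B2m (67.0), H2-D1 (18.4), H2-K1 (15.6), Serpina3n (6.83), C4b (3.50), Cd74 (2.67), Tap1 (1.14) and Lcn2 (0.682). No neighbours in that order overlapped over the 3 WT libraries. In D50A the order was the same down to Cd74, with Lcn2 (1.21) before Tap1 (0.940), and the ranges of H2-D1 and H2-K1, of C4b and Cd74, and of Lcn2 and Tap1 overlapped. Between libraries Lcn2 spanned most, its highest level being 4.44 times its lowest, and Serpina3n least, at 1.42 times.

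Among 15169 genes with a mean of at least 1 CPM, the 3 most like each member over the 7 libraries without D50A 3 had Pearson correlations of log2 CPM between 0.97 and 0.99, given as a description from few libraries that share depth and tissue differences. For H2-D1 they were Trim3, Tyw1 and Fam98c, at 0.98 each, which became -0.63, -0.36 and -0.46 over all 8 libraries. For B2m they were 3010001F23Rik, Eif2b4 and Chchd5, at 0.98 to 0.99, and 0.917 to 0.997 over all 8. For H2-K1 they were Tor4a, Akna and Col5a3, of which only Tor4a kept its sign over all 8 (0.95, against -0.89 and -0.88). Chosen from so many genes over 7 libraries, these likenesses say nothing particular to a member. C4b was most like Dph2, Zfp362 and Tmem43 (0.93 to 0.98 over all 8), Cd74 most like Lemd2, Napepld and Tmem63a (0.50 to 0.76). Tap1 was most like Zcchc14, Bcor and Hook2 (0.64 to 0.75) and Serpina3n most like Irs2, Mief1 and Caskin2 (0.51 to 0.56).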

How the data were processed

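Per the labels' protocols, poly(A)-selected total brain RNA went into NEBNext Ultra RNA libraries made by a sequencing company. The values the authors deposited are unnormalized counts of reads for each gene. Per the submitters' processing notes, the tools were CASAVA 1.8, STAR 2.5, HTSeq 0.6.1 and DESeq2 2, and the build mm10. For the annotation release and the strand setting: not given in the sources used here.

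Groups followed the genotype label. All 8 libraries entered edgeR's quasi-likelihood test (R 4.3.3, edgeR 4.0.16) with a filterByExpr filter, TMM factors, Benjamini-Hochberg adjustment over 16810 genes and a threshold of 0.05. CPM was computed here from library sizes times TMM factors, and its log2 with a prior count of 2. Each SE is the absolute log2 fold change divided by the square root of F. Depth was 13675945 to 24802272 counts per library, with no unassigned column.

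The 8 genes and the gene lists were chosen with earlier results of these data known. The text names the 8, then genes from the 3 with the smallest unadjusted p in a list, defining markers near 0, and for each member with a mean of at least 1 CPM the 3 genes most correlated with it. Others are marked as chosen with values in view.

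The settings tried besides were DESeq2 1.42.0, limma-voom with quality weights (limma 3.58.1), 2 other scalings, no filter, at least 1 CPM in 3 libraries, a robust fit, each library left out, D50A 1 and D50A 3 left out, and removal of a lowess trend (span 0.3, genes above a mean log2 CPM of 2) on the length of the longest protein-coding transcript in GENCODE M21, to which 25484 identifiers matched. In tests on simulated counts for 5 against 3 libraries (16810 genes), the edgeR test found 0%, 10%, 84% and 98% of changes of 1.5-, 2-, 4- and 8-fold and called 6 unchanged genes. For D50A 2, 4 and 5 against WT it found 90% of 1.5-fold changes and called 12 unchanged genes. The simulated counts had no length trend, and only genes above a minimum mean count were changed.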

Additional observations from a re-analysis of the deposited data

Results flagged for a closer look

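In 5 of the 8 genes, 1 D50A library lay far from the other 4, with a gap to its nearest neighbour above Dixon's 95% critical value of 0.71 of the range for 5 libraries. H2-K1 (50.2 CPM), H2-D1 (63.8 CPM) and B2m (129.5 CPM) were flagged in D50A 3, the library with the length trend, with gaps of 0.82, 0.815 and 0.882 of the range. Cd74 (7.55 CPM) and Serpina3n (16.4 CPM) were flagged in D50A 1, with gaps of 0.872 and 0.73. Chance flags about 1 in 20 groups, 8 genes were looked at, and values of 1 library are not independent of each other. The share of all genes that the rule would flag was not counted, so the flags cannot be called particular to these genes. Over all genes tested, D50A 3 was above all WT libraries for 43.4% and below all of them for 49.0%.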

How the results depend on the processing

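Of 136 values (8 genes under 17 alternatives), 129 kept their direction and their side of the threshold. The exceptions were H2-K1, which turned to -0.0233 in limma-voom and to -0.0186 without D50A 1 and D50A 3; B2m, which turned to -0.0347 with the length trend removed; C4b, which turned to 0.0459 with the length trend removed and to 0.0977 without D50A 3; and H2-D1, which passed the threshold in limma-voom (0.29) and without D50A 1 and D50A 3 (0.30). The cause was not tested. In those same 2 fits 1 of the 8 genes was called, against 0 in the others. Over all genes, against 0 and 0, DESeq2 called 31 higher and 6 lower, limma-voom 315 and 202, and the fit without D50A 1 and D50A 3 558 and 507; at an unadjusted p under 0.05 the fit of all libraries (edgeR) had 275 higher and 145 lower. DESeq2 gave no adjusted p for 5815 genes.

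Leaving out 1 library at a time gave 0 to 26 genes called higher, the 26 coming without D50A 1, 0 lower and 0 of the 8. The log2 fold change then ran from 0.04 to 0.35 for H2-K1, 0.31 to 0.46 for H2-D1, 0.16 to 0.51 for B2m, 0.05 to 0.39 for Cd74, -0.45 to -0.14 for Tap1, -0.29 to 0.10 for C4b, -0.20 to -0.08 for Serpina3n and 0.53 to 1.14 for Lcn2. No paired analysis was possible because the labels give the groups no shared replicate numbers. With 5 and 3 libraries, edgeR recovered 0% of 1.5-fold and 10% of 2-fold changes in simulated counts. Those counts held no length trend like that of D50A 3. Only genes above a minimum mean count were changed, so the simulation does not cover Lcn2. With 7 to 31 counts, Lcn2 has the widest error of the 8 in the fit of all libraries.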
